A study of Mus musculus with 8 samples.

Results

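Small RNA was measured on 6 genes whose products replace or compact the histones of haploid male germ cells: the protamine genes Prm1 and Prm2, the transition protein genes Tnp1 and Tnp2, and the spermatid linker histone genes H1fnt and Hils1. They were taken by name, as 6 of the 10822 features named in any of the 5 deposited tables. The supernatant, pellet, ACR IP and MVH IP tables list all 6 genes, and the table of sorted round spermatids lists 1 of them, Prm1.

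In elongating spermatids most histones are taken off the DNA, transition proteins occupy it for a time, and arginine-rich protamines then pack it into the sperm head. The messages of these genes are made early, in round spermatids, and are held in translationally silent ribonucleoprotein particles until the spermatid elongates. The chromatoid body is a perinuclear RNA and protein granule of round spermatids that holds the PIWI pathway, RNA helicases and messages, among them messages of late spermatid genes. H1fnt encodes the testis linker histone variant H1T2, and Hils1 a spermatid-specific linker histone-like protein.

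The study followed chromatoid body purification from C57BL/6 mice of at least 6 weeks, in 8 samples that fall into 7 groups. Cells freed from seminiferous tubules with collagenase were fixed with formaldehyde and sonicated in RIPA buffer to give the lysate. Spinning it left a supernatant above a first pellet, which after more sonication and a filter gave a second one. That second pellet went into immunoprecipitation (IP). The antibody was directed at MVH (DDX4, the vasa homolog that marks the chromatoid body) or, in the control, at ACR (acrosin, a protease of the acrosome). Sorted round spermatids, labelled hetMIWI with no further word on the genotype, formed the remaining group. MVH IP had 2 libraries, deposited as 1 column, and every other group had 1. RNA of 19 to 33 nt was selected in all groups. The pellet column is tied by the labels to both pellets and is given as the authors' pellet value. No difference below therefore has a replicate check: each compares libraries, not conditions. A smaller value in a column can mean fewer cells or particles with the RNA or less RNA in each. It can also come from the scaling of the column or from other RNA in the library, since levels are relative. These cannot be told apart. Whether the small RNA on these genes is made of message fragments, piRNA or other RNA was not tested.

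The 6 genes are small, and 3 of them lie in 1 cluster on mouse chromosome 16 (coordinates of the files, mm9 build). Prm1 is at chr16:10796424-10796916, Prm2 at chr16:10791473-10792190 and Tnp2 at chr16:10788027-10788748, while Tnp1 is at chr1:73061648-73062473, H1fnt at chr15:98086412-98087738 and Hils1 at chr11:94824135-94837641. Transcript lengths were 469 nt for Prm1, 621 nt for Prm2, 437 nt for Tnp1, 554 nt for Tnp2, 1308 nt for H1fnt and 864 nt for Hils1. The deposited Hils1 locus spans 13507 bp against a RefSeq gene of 864 bp that overlaps the muscle gene Sgca, so reads of the pair may be shared and its values are uncertain. The coding parts of Prm1 and Tnp1 are shown because these genes have the highest lysate level of their kinds and part company in the pellet and in the MVH IP. They are read from the GENCODE transcripts on the minus strand of GRCm38 (Prm1 transcript at chr16:10796326-10796886, Tnp1 at chr1:73015074-73015909), 5′ to 3′, with the arginine codons (CGN, AGA and AGG, in frame) in capitals.
Prm1 coding sequence: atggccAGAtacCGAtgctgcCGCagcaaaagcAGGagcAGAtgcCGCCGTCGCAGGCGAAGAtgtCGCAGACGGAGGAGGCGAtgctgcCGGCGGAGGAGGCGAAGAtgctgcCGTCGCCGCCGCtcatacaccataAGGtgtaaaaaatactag
Tnp1 coding sequence: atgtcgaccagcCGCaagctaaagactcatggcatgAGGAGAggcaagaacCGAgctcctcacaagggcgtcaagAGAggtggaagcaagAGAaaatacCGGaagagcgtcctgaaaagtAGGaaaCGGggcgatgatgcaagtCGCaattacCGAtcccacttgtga

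In Prm1, 28 of 51 codons were arginine codons (54.9%) and 3 were lysine codons. In Tnp1, 11 of 55 codons were arginine codons and 10 were lysine codons (18.2%). Arginine codons made up 35.5% of the 107 codons of Prm2 and 13.7% of the 117 codons of Tnp2. In the linker histone genes the share was 16.3% for H1fnt and 7.06% for Hils1. The coding part was 33.3% of the Prm1 transcript and 38.4% of the Tnp1 transcript, against 91.5% of the H1fnt transcript.

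Levels are given in FPKM, fragments scaled to feature length and library size, as deposited. Within a column they are comparable between genes of like length, but short transcripts are raised, as described below. The protamine genes carried the most small RNA of the 6 in the supernatant and the lysate. In the lysate column of the supernatant table Prm1 was at 167 FPKM, Prm2 at 115, Tnp1 at 93.8, Tnp2 at 58.8, Hils1 at 5.21 and H1fnt at 4.35 FPKM. Of 3616 named genes in that column, which leave out microRNA genes, piRNA clusters, structured RNA genes and assembled transcripts, Prm1 ranked 17th, Prm2 25th, Tnp1 29th and Tnp2 32nd. Hils1 ranked 467th and H1fnt 571st. The protamine and transition protein genes thus stood far above the linker histone genes.

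Reads behind these values were estimated from the steps between low values, which mark what 1 read is worth, with an effective transcript length for fragments of 200 ± 80 nt. Prm1 then rested on 374 lysate reads (95% Poisson interval 337 to 414), Prm2 on 400 (362 to 441), Tnp1 on 185.8 (160 to 215) and Tnp2 on 172.8 (148 to 201). H1fnt rested on 40.3 reads (28.8 to 54.8) and Hils1 on 28.9 (19.4 to 41.6). These intervals cover counting error only. On the FPKM scale of that lysate column they came to 150 to 184 for Prm1, 104 to 126 for Prm2, 80.8 to 108 for Tnp1 and 50.4 to 68.3 for Tnp2. Prm1 and Tnp2 therefore stood apart from the rest in counting error, whereas the neighbours Prm2 and Tnp1 overlapped, as did Hils1 (3.49 to 7.49) and H1fnt (3.11 to 5.92). FPKM raises short transcripts through the effective length, and the ranks among named genes were not corrected for this. By lysate reads per kilobase of full transcript the order was unchanged, with 798 for Prm1, 644 for Prm2, 425 for Tnp1, 312 for Tnp2, 33.5 for Hils1 and 30.8 for H1fnt.

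**Figure D1:**
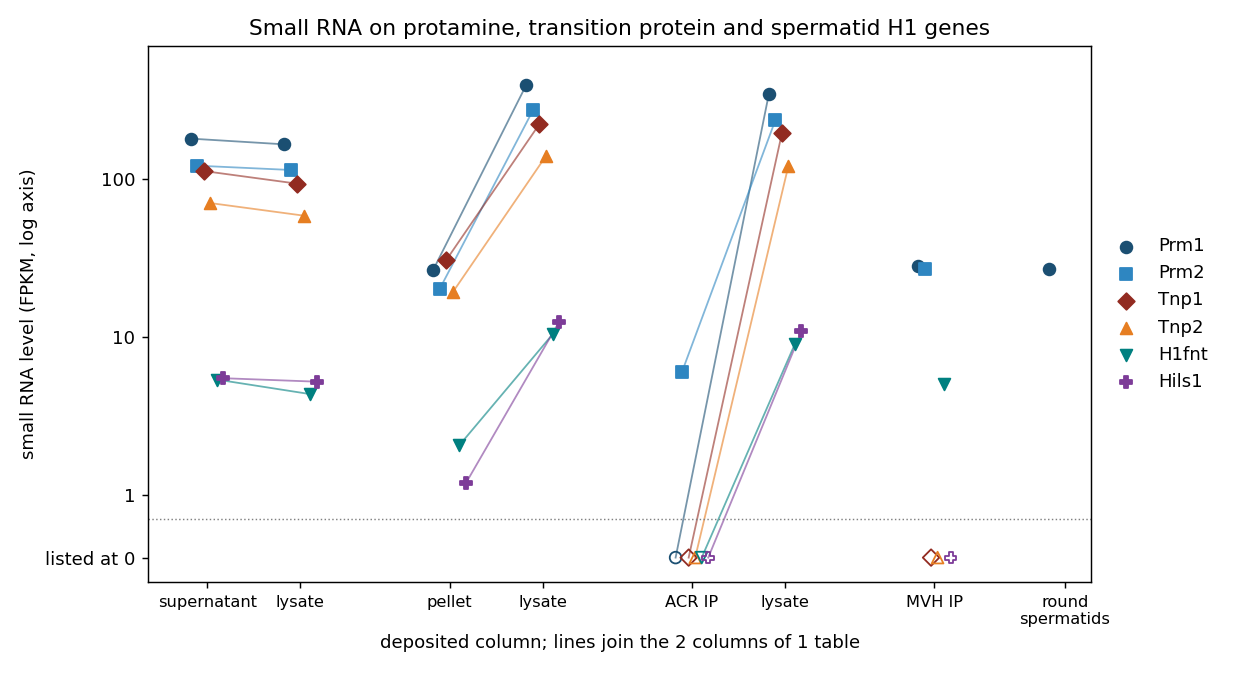
Small RNA level of each gene (FPKM, log axis) in each deposited column; lines join the fraction and lysate columns of 1 table, and open symbols below the dotted line are values listed at 0. Supernatant and lysate points lie side by side, pellet points lie below the lysate, and in the ACR IP only Prm2 is above 0.

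The supernatant asks which small RNA stays in solution when the lysate is spun. All 6 genes lay close to the lysate there. Prm1 was at 181 FPKM in the supernatant, against 167 FPKM in the lysate, and Prm2 at 122 against 115. Tnp1 was at 113 in the supernatant, against 93.8 in the lysate, and Tnp2 at 70.7 against 58.8. H1fnt was at 5.38 in the supernatant, against 4.35 in the lysate, and Hils1 at 5.48 against 5.21. Each gene was slightly higher in the supernatant, by 1.05-fold for Hils1 to 1.24-fold for H1fnt.

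Ratios were taken as log2 of (fraction FPKM + 1) over (lysate FPKM + 1) within a table, for features of at least 1 FPKM in either column; this scale understates the change of low genes. The supernatant ratios were 0.12 for Prm1, 0.09 for Prm2, 0.26 for Tnp1, 0.26 for Tnp2, 0.25 for H1fnt and 0.06 for Hils1. None of the 6 was at least 2-fold higher or lower, where 7.16% of all 4999 features were higher and 5.42% lower. The median of the 6 was 0.19, beside 0.02 over all features with quartiles of −0.22 and 0.28. Without the pseudocount the ratio of Tnp1 was 0.27 (SE 0.133, as implied by the authors' test statistic, with a 95% interval of 0.01 to 0.53), and the intervals of Prm1 (−0.09 to 0.33), Prm2 (−0.09 to 0.27), H1fnt (−0.23 to 0.84) and Hils1 (−0.63 to 0.78) included 0. In the authors' deposited table the p-value was 0.0451 for Tnp1 and 0.0493 for Tnp2 with q-values of 0.260 and 0.275, the only 2 of the 6 with an unadjusted p below 0.05, and none of the 6 was called, where it called 0.960% of features higher and 1.62% lower. Differences between the genes in this ratio were within their error: 8 pairs of a transition protein or linker histone gene with a protamine gene were compared, and the interval included 0 in each.

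The pellet is the material from which the chromatoid body is purified. All 6 genes were lower there than in the lysate, and the protamine genes were the lowest of them by ratio. The lysate column of the pellet table holds the same library on another scale, with values 2.39 times those of the supernatant table in the median over 2786 shared features. Prm1 was at 26.6 FPKM in the pellet, against 398 FPKM in the lysate, and Prm2 at 20.2 against 274. Tnp1 was at 30.8 in the pellet, against 224 in the lysate, and Tnp2 at 19.2 against 141. H1fnt was at 2.06 in the pellet, against 10.4 in the lysate, and Hils1 at 1.18 against 12.5. By value Tnp1 was the highest of the 6 in the pellet and Prm1 in the lysate, but read numbers could not be derived for the pellet, so the order of the 4 highest genes there is not shown to exceed counting error.

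The pellet log2 ratios were −3.85 for Prm1, −3.70 for Prm2, −2.83 for Tnp1, −2.81 for Tnp2, −1.90 for H1fnt and −2.62 for Hils1. All 6 were at least 2-fold lower, but so were 86.5% of all 3005 features, so the count is close to the background. In the authors' deposited table Prm1, Prm2, Tnp1 and Tnp2 were called lower, 4 of 6, where 18.7% of all features were. These 4 had the highest lysate levels and the largest absolute test statistics of the 6. The call thus went with level, and the count is not a result about the genes as a kind. By q-value in the authors' deposited table, with a threshold of 0.05, all 6 were lower, where 69.4% of features were; its q-value was 0.000101 for H1fnt and 0.00256 for Hils1. The median over all features was −2.20, so the common shift between the columns is far larger than 0.1. Relative to it the ratios were −1.65 for Prm1, −1.50 for Prm2, −0.63 for Tnp1, −0.61 for Tnp2 and −0.43 for Hils1, and H1fnt turned to the other side with 0.30.

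The pseudocount compresses low features, which are most of the background, so the same was done without it over the 2586 features above 0 in both columns. Their median ratio was −2.71 with quartiles of −3.36 and −2.22. Prm1 was at −3.90 (SE 0.350), with 14.7% of features lower, and Prm2 at −3.76 (SE 0.281), with 16.6% lower. Tnp1 was at −2.87 (SE 0.321) and Tnp2 at −2.87 (SE 0.325), near the middle of all features with 42.8% and 42.6% lower. H1fnt was at −2.33 (SE 0.574) with 70.3% lower, and Hils1 at −3.40 (SE 1.07) with 24.1% lower. Prm1 and Prm2 therefore lay below the interquartile range of features by this measure, as did Hils1 by less than its SE, and Tnp1, Tnp2 and H1fnt inside it. Among the 38 named genes of at least 100 FPKM in that lysate column, which are genes of like level and include the 4 protamine and transition protein genes, the median was −2.61 with quartiles of −2.88 and −2.47.

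**Figure D2:**
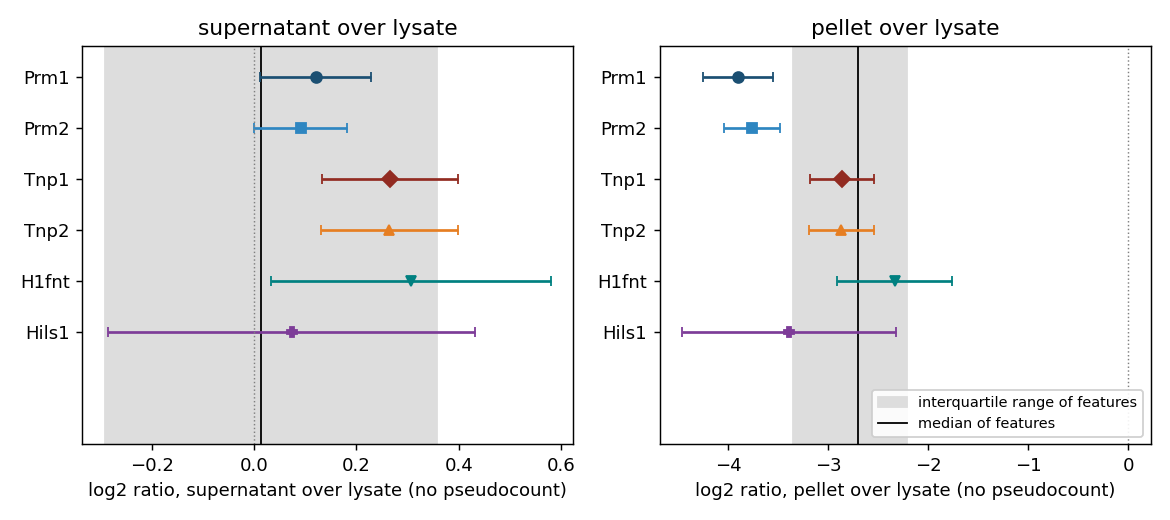
Log2 ratio of each gene without a pseudocount, in the supernatant over the lysate (left) and in the pellet over the lysate (right); points are single values and bars 1 SE implied by the authors' test statistic. The grey band is the interquartile range, and the black line the median, of features above 0 in both columns; in the pellet Prm1 (−3.90) and Prm2 (−3.76) lie below the band and Tnp1 and Tnp2 (both −2.87) inside it.

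The protamine genes were lower than the transition protein genes by pellet ratio. Tnp1 exceeded Prm1 in log2 pellet ratio by 1.03 (SE 0.475, 95% interval 0.10 to 1.97) and Prm2 by 0.89 (SE 0.426, 0.06 to 1.73). Tnp2 exceeded Prm1 by 1.03 (SE 0.478, 0.09 to 1.97) and Prm2 by 0.89 (SE 0.430, 0.05 to 1.73). H1fnt exceeded Prm1 by 1.57 (SE 0.673, 0.25 to 2.88) and Prm2 by 1.43 (SE 0.639, 0.17 to 2.68). For Hils1 the intervals were wide and included 0, at −1.70 to 2.71 against Prm1 and −1.80 to 2.53 against Prm2. So 6 of 8 pairs differed beyond their counting interval, most of them narrowly. These SEs take the genes as independent, the intervals are not adjusted for the 16 pairs over both tables, and no spread between libraries enters them.

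The ratio of 1 gene to another within a column restates the pellet differences above without any scale. It uses the same values and is no separate support. Prm1 over Tnp1 was 1.60 in the supernatant and 0.866 in the pellet, against 1.78 in the lysate. Prm2 over Tnp2, neighbours in the same gene cluster, was 1.73 in the supernatant and 1.05 in the pellet, against 1.95 in the lysate. Within a kind the ratios hardly moved: Tnp1 over Tnp2 was 1.60 in the supernatant and 1.60 in the pellet, against 1.59 in the lysate, and Prm1 over Prm2 was 1.48 in the supernatant and 1.32 in the pellet, against 1.45 in the lysate. The Leydig cell hormone gene Insl3, a marker of cells outside the tubules, was also low in the pellet, at 1.55 FPKM against 32.5 in the lysate (log2 ratio −4.39, SE 1.22, both without the pseudocount). Of the 7 Leydig markers 2 were measured in that table and both were at least 2-fold lower, where 86.5% of all features were. Their summed level was 1.60 FPKM in the pellet against 37.3 FPKM in the lysate. The part of Leydig cells in the result was not tested.

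The ACR IP is the control precipitation. The protamine and transition protein genes were nearly all listed at 0 in it. Prm1 was listed at 0 in the ACR IP, against 347 FPKM in the lysate column of that table, Tnp1 at 0 against 195, and Tnp2 at 0 against 122. H1fnt was listed at 0 in the ACR IP, against 9.05 in the lysate, and Hils1 at 0 against 10.9. Prm2 was at 6.04 FPKM in the ACR IP, against 237 FPKM in the lysate. On the scale with the pseudocount all 6 counted as at least 2-fold lower, where 59.0% of all 2539 features did and 47.4% of the named genes. For H1fnt and Hils1 this is set by the pseudocount and not by reads, as their read limits below show, which leaves the 4 protamine and transition protein genes. The ACR IP column listed 5 of 6 at 0, where 41.2% of all features were listed at 0. Of the 31 named genes of at least 100 FPKM in that lysate column, 11 (35.5%) were listed at 0. Those 11 include Prm1, Tnp1 and Tnp2, while Prm2 is among the rest of the 31. H1fnt and Hils1 lie below that lysate level and are not part of this share.

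The ACR IP library was shallow: 1 of its reads was worth about 10.1 lysate reads. A read of 2 times that worth was tried and did not match the steps in its low values (mean cosine −0.10, against 0.63 for the unit used, where 1 means that every low value is a whole number of reads). By this estimate Prm2 rested on 1 read (1.01) and was 39.2-fold below the lysate, with a counting interval of 7.13-fold to 1569-fold. Had the ACR IP held the lysate level, 37.1 reads would have been counted on Prm1, 39.7 on Prm2, 18.5 on Tnp1 and 17.2 on Tnp2, but 4.0 on H1fnt and 2.87 on Hils1. If a value of 0 stands for no reads, a floor of 3 reads per library puts Prm1 at least 12.4-fold lower in the ACR IP, Tnp1 at least 6.15-fold and Tnp2 at least 5.72-fold. For H1fnt that limit is 1.33-fold, and for Hils1 the lysate level was at the floor, so a difference was not detectable at this depth. An entry of 0 in a file without counts can also be a failed estimate.

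The MVH precipitate stands for the purified chromatoid body, and some of these genes had a level in it while others were listed at 0. Prm1 was at 28.3 FPKM, Prm2 at 27.0 and H1fnt at 5.06 FPKM, while Tnp1, Tnp2 and Hils1 were listed at 0. Among the 3083 named genes of at least 1 FPKM in that column, whose median was 4.47, Prm1 ranked 250th, Prm2 267th and H1fnt 1451st. Prm1 and Prm2 were nearly level, with a ratio of 1.05 in the MVH IP against 1.45 in the lysate. Both transition protein genes were listed at 0, although Tnp1 had the highest pellet value of the 6.

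Across tables, which were normalized separately, the values can only be set side by side. Against the lysate column of the supernatant table the MVH IP log2 ratio was −2.52 for Prm1, −2.04 for Prm2 and 0.18 for H1fnt. Of these 3 genes with a level, 2 were at least 2-fold lower, where 7.98% of the 1729 named genes above 0 in both columns were, with a median of 0.54 and quartiles of −0.17 and 1.23. Against the pellet column the ratio was 0.08 for Prm1, 0.40 for Prm2 and 0.99 for H1fnt. Only the second pellet went into the IP, and the labels do not say which pellet that column holds. The median of the 1003 named genes above 0 in both columns was 1.52 with quartiles of 0.86 and 2.14. On that comparison none of the 3 was at least 2-fold lower, where 1.89% of named genes were, and none was at least 2-fold higher, where 69.6% were. Prm1 and Prm2 thus lay below the lower quartile of named genes. Once both columns were scaled to the median of shared named genes the ratio to the pellet was −1.87 for Prm1 and −1.54 for Prm2, which makes 2 of 3 at least 2-fold lower, so their sign depends on the scale. No ratio is given for Tnp1, Tnp2 and Hils1, since an entry of 0 may be a low level or a failed estimate. Which of these it was for the 3 genes was not tested. The ratio of H1fnt turned to −0.49 on that scale.

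**Figure D3:**
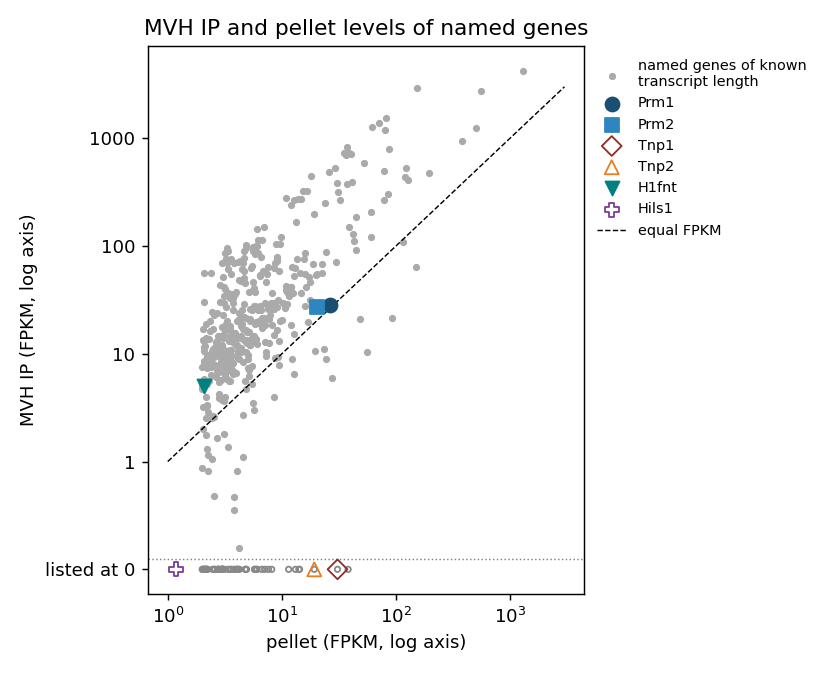
MVH IP level against pellet level (FPKM, log axes) of named genes with 1 transcript of known length and at least 2 FPKM in the pellet (grey), with the 6 genes in colour; open symbols below the dotted line are listed at 0 in the MVH IP and the dashed line marks equal FPKM. Prm1 and Prm2 lie near the dashed line, below most genes, while Tnp1 (30.8 FPKM in the pellet) and Tnp2 (19.2) are listed at 0.

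An entry of 0 in the MVH IP was rare for genes of this pellet level. Of 1433 named genes that the pellet table holds, 25.5% were listed at 0 in the MVH IP. Of the 116 with at least 10 FPKM in the pellet it was 6.03%, or 7 genes, which include Tnp1 and Tnp2 themselves. Among the genes of known single transcript listed at 0, Tnp1 and Tnp2 came next in pellet level to Gm12238, the highest with 38.1 FPKM, and before Ppa2 (14.3) and the sperm mitochondrial gene Smcp (14.1). Transcript length moved with it. Among named genes with 1 transcript and at least 2 FPKM in the pellet, 20 of 43 (46.5%) were listed at 0 at up to 600 nt, 18 of 84 (21.4%) above 600 and up to 1200 nt, and 15 of 363 (4.13%) above 1200 nt. Median pellet levels in these length groups were 4.18, 4.26 and 4.52 FPKM. Tnp1 and Tnp2 belong to the shortest group, as does Prm1 with its value of 28.3. Of that group at 10 FPKM or more in the pellet, Gm12238 (140 nt) and Ndufa3 (515 nt) were also listed at 0. Tnp1 and Tnp2 were thus not alone among short genes of this level. Others, such as Prm1 and Hist1h2ba (384 nt, 91.8 FPKM in the MVH IP), had a level. The share at 0 was not taken by pellet level and length together, and the part of length in the entries of 0 was not tested. Length bins were chosen after the values were seen.

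**Figure D4:**
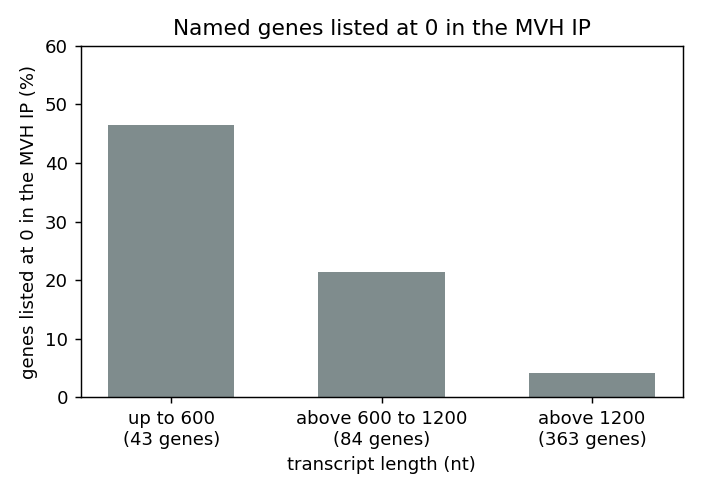
Share of named genes listed at 0 in the MVH IP (percent) by transcript length (nt), for genes with 1 transcript and at least 2 FPKM in the pellet; the number of genes stands under each bar. The share is 46.5% up to 600 nt and 4.13% above 1200 nt.

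The sorted round spermatids are the cells that hold chromatoid bodies. Their table of 1014 features lists Prm1 at 26.8 FPKM, 88th of 345 named genes, whose median was 13.0 FPKM, and 642nd of all features. The other 5 genes have no entry, which gives no level for them. Prm1 was at 28.3 FPKM in the MVH IP and 26.8 in the round spermatids, on separate scales. The testis histone gene Hist1h2ba was at 59.5 FPKM in the round spermatids and 91.8 in the MVH IP.

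Other genes of histone replacement and chromatin condensation gave these counts. Of 25 listed genes 15 were measured in the supernatant, none at least 2-fold changed, with a median of 0.25 beside 0.02 over all features. In the pellet 10 of 10 were lower, beside 86.5% of all features, with a median of −2.22 beside −2.20. Hist1h2ba, the H2B variant of germ cells, was at 130 FPKM in the supernatant against 119 in the lysate, and at 44.6 FPKM in the pellet against 284 in the lysate (log2 ratio −2.67, SE 0.298, both without the pseudocount). Hist1h2aa, its H2A partner, was at 6.65 in the pellet against 31.1 in the lysate. The linker histone gene Hist1h1t was at 8.49 against 18.8 (log2 ratio −1.15 without the pseudocount). In the ACR IP 7 of 9 were lower, all 7 listed at 0, beside 59.0% of all features lower and 41.2% listed at 0. In the MVH IP 6 of 19 were listed at 0. Of named genes also measured in the pellet 25.5% were. Only 10 of the 25 listed genes were measured in the pellet, so these shares rest on unlike sets. Prm3, a protamine-like gene 466 bp from Prm2, had few estimated lysate reads (11.2) and was at 8.59 FPKM in the supernatant against 6.98 in the lysate, and at 1.16 in the pellet against 16.7; it was listed at 0 in both IPs. The neighbour A630055G03Rik, within 50 kb of the cluster, was at 1.14 FPKM in the pellet against 7.14 in the lysate (log2 ratio −2.64 without the pseudocount).

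Late spermatid genes outside the chromatin group had a median supernatant ratio of 0.26 over 21 genes, none 2-fold changed, and 18 of 18 were lower in the pellet, beside 86.5% of all features, with a median of −2.27 beside −2.20. The sperm lactate dehydrogenase gene Ldhc was at 12.8 FPKM in the pellet against 79.3 in the lysate, Smcp at 14.1 against 65.7, and the outer dense fibre gene Odf2 at 5.02 against 46.3. In the MVH IP 13 of 22 were listed at 0, Smcp and Odf2 among them, whereas Ldhc was at 15.2 FPKM. Of named genes also measured in the pellet, as 18 of the 22 were, 25.5% were listed at 0, so these shares rest on unlike sets. In the ACR IP 12 of 14 were lower, beside 59.0% of all features. Genes that store and translate haploid messages had a supernatant median of 0.05 over 14 genes with none 2-fold changed, and 10 of 10 were lower in the pellet, beside the same 86.5%, with a median of −2.31. In the ACR IP 8 of 8 were lower, beside 59.0%. In the MVH IP 3 of 13 were listed at 0, beside the 25.5% of named genes also measured in the pellet. As only 10 of the storage and translation genes were measured in the pellet, these shares too rest on unlike sets. Ddx25, a helicase of the chromatoid body, was at 4.93 FPKM in the pellet against 31.9 in the lysate, Pabpc1, a poly(A)-binding protein gene, at 2.04 against 19.3, and Ybx2, whose protein binds stored messages, at 1.76 against 18.9. Of 11 transcription factors and co-activators of haploid genes 6 were measured in the supernatant, none 2-fold changed, with a median of 0.18. In the pellet 2 of 2 were lower, beside 86.5% of all features; Crem, the activator of protamine and transition protein genes, was at 0.380 FPKM in the pellet against 4.58 in the lysate, and at 199 FPKM in the ACR IP against 3.91 in the lysate.

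Markers of the cell types at hand were low in the lysate beside the 4 protamine and transition protein genes. In the lysate column of the supernatant table the measured acrosome markers of spermatids summed to 12.5 FPKM (6 of 10 genes), spermatocyte markers to 15.5 (6 of 11), Leydig markers to 16.7 (3 of 7), spermatogonial markers to 2.5 (2 of 8), the Sertoli marker Clu to 2.08 (1 of 8) and peritubular and blood markers to 1.32 (1 of 8). In the pellet 3 of 3 acrosome markers were at least 2-fold lower, as were 2 of 3 spermatocyte markers and Clu, beside 86.5% of all features. The spermatogonial receptor gene Kit was higher in the pellet, at 18.2 FPKM against 5.27 in the lysate, and was at 444 FPKM in the MVH IP. It was also higher in the control ACR IP, at 54.6 FPKM against 1.65 in the lysate column of that table.

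Likeness was measured for Prm1, Prm2 and H1fnt, the 3 genes above 0 in the MVH IP, as the distance over 3 log2 ratios (supernatant, pellet and MVH IP, each over the lysate) among 189 named genes of at least 10 FPKM in the lysate. The gene most like Prm1 was Prm2 (distance 0.497), followed by Gm12191 (1.10) and 2900060B14Rik (1.17). The genes most like Prm2 were Prm1, Gm12191 (0.693) and 2900060B14Rik (0.702). H1fnt was nearest to Hist1h2aa (0.275), Spin1 (0.350) and the Argonaute 2 gene Eif2c2 (0.366). All 3 ratios share the lysate values.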

How the data were processed

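Small RNA levels of 8 samples were taken from 5 tables of FPKM that the authors deposited. The unit stands in the round spermatid table's header and was taken from Cuffdiff's column names for the other tables. TopHat, Cuffdiff and mm9 are listed in the submitters' processing notes; the sources used here do not give versions, the gene annotation or how multiply mapped reads were handled. The authors' deposited supernatant and pellet tables also hold p-values, q-values, calls and a test statistic, a score with no fixed range, from which each SE was derived (their log2 ratio runs lysate over fraction and was turned round). The long RNA values of the MVH IP table (1 column) belong to no sample here and were not used. In the MVH IP table, rows sharing symbol and locus were added up.

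Log2 ratios used a pseudocount of 1 FPKM; lists were counted at 2-fold and described by medians. The members and lists were chosen with earlier results of these data known. By rule, the text names the 6 genes, up to 3 genes of each list with the highest lysate level, neighbours within 50 kb, the 3 genes most like each of them, and, chosen after their values were seen, the highest genes listed at 0. Files without counts leave depth unknown, so reads were estimated from steps in low values; this, the effective lengths (GENCODE vM21 transcripts), the length bins and the view without a pseudocount were also chosen after the data were seen. The pellet and MVH IP columns gave no clear step. Computation used pandas 2.3.3, matplotlib 3.10.9, scipy 1.17.1 and numpy 2.4.6 under Python 3.11.15, and the steps were tested on simulated data.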

Additional observations from a re-analysis of the deposited data

How the results depend on the processing

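No paired analysis was possible because each group has 1 column, and no replicate could be left out for the same reason. The results tried again were the counts at 2-fold, the medians against background, each gene's ratio, and ranks in the MVH IP and round spermatids, under other pseudocounts (0.1 and 10 FPKM), no filter or a filter of 10 FPKM, centring, the authors' calls and other backgrounds. Of 33 recomputed counts and medians 30 stayed within 1.5 times or 0.25 of the reported value, and 3 moved. The ACR IP median of the 6 genes was −3.31 relative to all features but −5.78 relative to named genes. Against the pellet, with the MVH IP values scaled to the median of named genes, 2 of 3 genes above 0 were at least 2-fold lower, where none was as reported, and with a pseudocount of 0.1 FPKM 1 of 3 was at least 2-fold higher. The pellet ratio of H1fnt reversed on centring, at 0.30 where −1.90 was reported. Of 100 values of single genes 58 stayed within their 95% interval (or 1 on the log2 scale where there was no SE) and 41 moved. Without a pseudocount, an alternative added later, the pellet median relative to all features was −0.43, against −0.62 as reported. The 6 genes lower in the pellet became 4 by call in the authors' deposited table, and the 6 lower in the ACR IP became 5 at the 10 FPKM filter. ACR IP ratios of genes listed at 0 are set by the pseudocount, so only their read limits are informative. The cause of these changes was not tested beyond that.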
